A study of Drosophila melanogaster with 2 samples.

Results

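The regions described here are the strongest binding peaks of a luna-GFP fusion protein in Drosophila melanogaster embryos. They come from the IDR list, which holds peaks kept by their irreproducible discovery rate, a measure of how well ranks repeat between replicates. Ranked by the deposited signal value, the top 12.5% of that list was taken, which is 149 peaks at promoters and 63 outside them, and 1484 IDR peaks remained for comparison. Signal is the authors' score of a peak and has no stated scale. It chose these peaks, so signal, peak width and the replicate signals are given below as a description, without a test, and tests concern the sequence and location of the peaks against those other IDR peaks.

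The chromatin came from whole embryos of mixed sex, 0 to 24 h old, of the strain luna-MiMIC-GFP, in which an exon for enhanced GFP lies in an intron of luna. An antibody against GFP was used on sonicated chromatin with fragments of 200 to 800 bp. There are 2 biological replicates of this 1 group and no other genotype or treatment. Embryos of all stages and cell types are pooled, so a signal cannot be assigned to a cell type or stage. A control experiment named in the labels was not analysed here.

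The gene luna encodes a zinc finger protein of the KLF family of transcription factors, which bind GC-rich DNA, classically through CACCC-type elements, and act as activators or repressors. In chromatin immunoprecipitation followed by sequencing, DNA bound directly or through other proteins is recovered, and the summit marks the point of most recovery in a peak. Promoters are the stretches around a transcription start site (TSS), where the general transcription machinery and many factors meet.

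Every pair of a 6-base word and its reverse complement was counted within 100 bp of each summit on either side, and 4 were more frequent at the strongest peaks than at the other IDR peaks, which is 0.192% of the words tested. They are AGGGGG (word 1), GGCGTA (word 2), ACCCCC (word 3) and CAGTGG (word 4), each counted on both strands. Words 1 and 3 share their run of 5 G or C bases, so AGGGGGT holds both, and CAGTGGCGTA holds words 4 and 2. The stretches that follow are shown because words 2 and 1 stand in the same order on the same strand in each. They are from 7 of the 10 peaks with this arrangement within 150 bp of the summit, touch no untranslated region and have 10 bases on either side. The arrangements at muskelin and Adck1 overlap an untranslated region and are not shown. That at Dp overlaps none and was also left out of the display. The stretch of mRpL23 lies 114 bp from its summit, and that peak holds 0 of the words within 100 bp. All bases that belong to one of the 4 words are in capitals, sequences run 5′ to 3′, positions are 1-based in dm6, and the sequence is that of RefSeq Release 6.
CG14100, chr3L:19590525-19590570, plus strand: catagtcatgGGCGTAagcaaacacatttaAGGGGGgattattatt
CG9663, chr2L:3302214-3302248, minus strand: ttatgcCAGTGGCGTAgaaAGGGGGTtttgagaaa
CHMP2B, chr3L:5139538-5139583, minus strand: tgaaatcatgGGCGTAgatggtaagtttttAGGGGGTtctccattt
CG16753, chr3L:3060850-3060896, minus strand: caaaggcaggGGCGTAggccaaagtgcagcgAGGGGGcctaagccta
mRpL23, chr3L:2373519-2373553, plus strand: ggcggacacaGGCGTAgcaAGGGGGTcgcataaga
CG3009, chrX:4667060-4667102, minus strand: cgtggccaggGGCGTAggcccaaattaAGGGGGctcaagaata
CG31612, chr2L:21795015-21795055, minus strand: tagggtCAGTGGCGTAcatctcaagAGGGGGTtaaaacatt

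Whole summit windows, 100 bp on either side of the summit, are shown for 4 strong peaks that hold at least 1 word and no annotated untranslated sequence, to show where the words lie relative to the summit, which is the middle base. The peak near Lk6 holds word 4 alone, that near CG31145 word 2 alone, that near CHMP2B words 1, 2 and 3, and that near CG9663 all 4.
Lk6, chr3R:11760931-11761131, plus strand: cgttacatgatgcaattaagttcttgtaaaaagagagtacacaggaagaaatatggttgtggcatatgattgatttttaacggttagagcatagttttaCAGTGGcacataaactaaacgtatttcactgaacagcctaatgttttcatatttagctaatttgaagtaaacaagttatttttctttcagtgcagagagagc
CG9663, chr2L:3302072-3302272, plus strand: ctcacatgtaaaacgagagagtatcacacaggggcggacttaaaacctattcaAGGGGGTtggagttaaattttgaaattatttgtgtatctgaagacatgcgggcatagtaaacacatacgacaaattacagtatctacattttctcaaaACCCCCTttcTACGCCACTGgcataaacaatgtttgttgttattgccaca
CHMP2B, chr3L:5139415-5139615, plus strand: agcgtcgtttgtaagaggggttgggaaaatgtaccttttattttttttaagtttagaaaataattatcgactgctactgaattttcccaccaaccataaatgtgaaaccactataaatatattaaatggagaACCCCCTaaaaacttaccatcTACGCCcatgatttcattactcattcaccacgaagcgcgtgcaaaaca
CG31145, chr3R:23669751-23669951, plus strand: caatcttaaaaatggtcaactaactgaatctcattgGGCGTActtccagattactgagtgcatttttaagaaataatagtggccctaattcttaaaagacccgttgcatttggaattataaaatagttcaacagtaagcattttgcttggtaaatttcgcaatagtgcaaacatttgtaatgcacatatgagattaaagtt

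The 10 strongest peaks spanned signals of 389.6 to 689, and 4 of them lay outside promoters. The strongest was at Ugalt, a transporter of UDP-galactose, with a signal of 689 at chrX:2703754-2704041, and the matched candidates had 348.6 in replicate 1 and 342 in replicate 2. Next came CG14100 (672), mRpL41 (586), which encodes a protein of the mitochondrial ribosome, and a peak 1402 bp upstream of cbt (560.2), itself a KLF-family gene. That peak lies in an intron of ush, which encodes a cofactor of GATA factors. The peaks at CG11050 (519), lncRNA:CR44619 (493), PNPase (467), Lk6 (439.99), px (389.8) and CG9663 (389.6) followed. PNPase is a mitochondrial RNA-degrading enzyme, and Lk6 is a kinase that acts on a translation initiation factor. Each of the 10 was among the 17 strongest candidates of each replicate.

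Ranks 21 to 40 ran from 315 to 238 in signal. Among them, Shc, an adaptor of receptor tyrosine kinases, had a signal of 315, with 152 in replicate 1 and 165 in replicate 2. The stress-responsive bZIP factor gene Atf3 had 301, with 144 in replicate 1 and 159 in replicate 2. The glutathione transferase gene GstE13 had 301, with 145 in replicate 1 and 159.9 in replicate 2. These promoters stood at nearly equal ranks in both replicates. The casein kinase gene gish (287), the reticulon gene Rtnl1 (278), CG17896 (274), CG5098 (257), MFS10 (243) and CG18549 (241) were other promoter peaks of this stretch, with CG9147 (308) and Art3 (301) above them. The stretch also held a peak inside HmgD and HmgZ (294), which encode HMG-box chromatin proteins, a peak in osa (258), a subunit of a chromatin remodelling complex, and a peak in Trl (238), which encodes the GAGA factor. A further peak was at lncRNA:CR44619 (279), and the rest were near CG14762 (276), CG13323 (256), lncRNA:CR45643 (254), CG3726 (239.7) and CG9837 (238).

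At the lower edge, the last 5 of these peaks, from rank 208 on, were at Cftr (118), yps (118), CG32075 (117), CG31224 (116.8) and the ribosomal protein gene RpS29 (116.8). Just outside, the next 5 IDR peaks were at Reph (116.7), lncRNA:CR45643 (116.7), Ac78C (116.7), CHES-1-like (116.6) and zf30C (116.6). The signal thus falls without a gap across the border. Within the strongest peaks the median was 151 (quartiles 130 and 208), against a median of 60.6 in the other IDR peaks (quartiles 52.2 and 76.1).

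Both replicates held a candidate with its summit within 250 bp of each of these summits. In replicate 1 the matched candidates ranked 1 to 478 of 30000, with a median of 106.5, and in replicate 2 they ranked 1 to 1920, with a median of 109. Of the strongest peaks, 181 would also be among as many top candidates of replicate 1 and 180 among those of replicate 2, and 152 of them in both. Across the strongest peaks, Spearman's rho between the replicate signals was 0.67, and across 1477 other IDR peaks matched in both it was 0.26. The signal range differs between the sets, and the same signals entered the choice of peaks, so both values only describe them. Replicate summits lay a median of 16 bp apart (quartiles 6 and 29) at the strongest peaks and 31 bp apart (quartiles 12 and 59) at the others.

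**Figure D1:**
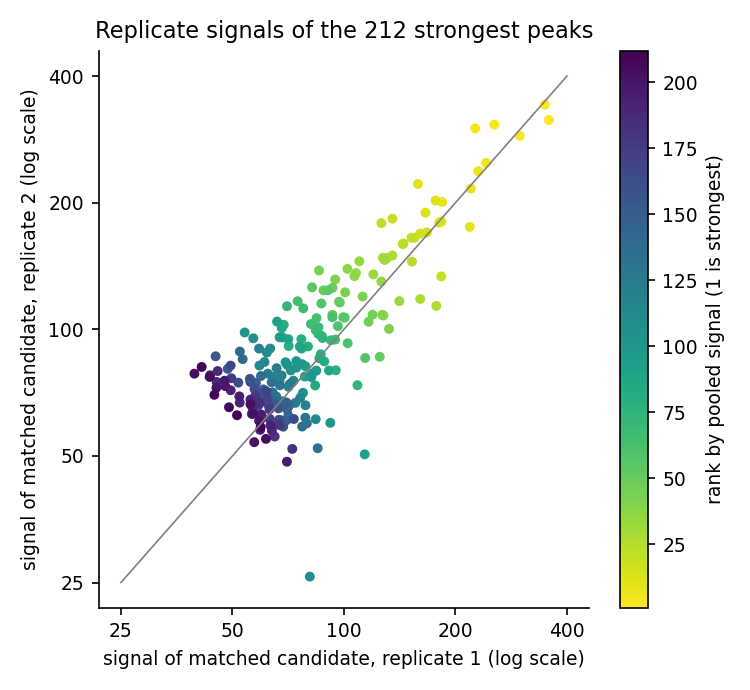
Signal of the matched candidate in replicate 1 (horizontal) and replicate 2 (vertical), both on log scales, for each of the strongest peaks, coloured by rank, with the line of equal signal. Most points follow the line, and CG31612 lies far below it with 80.9 in replicate 1 and 25.8 in replicate 2.

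A few peaks were uneven between replicates. CG31612 had a signal of 80.9 and rank 86 in replicate 1, and 25.8 and rank 1920 in replicate 2, the only one of these peaks whose weaker rank lay beyond the length of the IDR list. Vps33B, a gene of vesicle trafficking, had 113.7 in replicate 1 and 50.4 in replicate 2. The gene spi, which encodes a ligand of the EGF receptor, had 84.9 in replicate 1 and 52.1 in replicate 2. HmgZ and Gmppa were next in this direction, with log2 ratios of replicate 1 over replicate 2 of 0.64 and 0.62. In the opposite direction osp had 39.5 in replicate 1 and 78.4 in replicate 2, and RpS29 had 41.3 in replicate 1 and 81.4 in replicate 2. A peak in Roc2 near tRNA:Met-CAT-1-2 (log2 ratio -0.94), the glycolytic gene Gapdh2 (-0.87) and EMC6 (-0.84) followed. Ratios over 2-fold occurred at 2 of the strongest peaks and at 225 of 1477 other IDR peaks, and the lists were scored separately, so these ratios carry no common scale.

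Narrow peaks were frequent among the strongest. Of the strongest peaks, 82 were narrower than 376 bp, the width of nearly all peaks of the list, against 1 of the 1484 other IDR peaks. Narrow peaks made up 50 of the 53 strongest, 23 of the next 53, 9 of the next 53 and 0 of the last 53. The narrowest was 94 bp. Width comes from the same peak calling as signal and was not tested.

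Most of the strongest peaks lay at promoters, as did most of the other IDR peaks. A summit within 500 bp of an annotated TSS was found at 149 of the strongest peaks (70.3%, Wilson 95% interval 63.8 to 76), against 973 of 1484 (65.6%, 63.1 to 67.9). The odds ratio was 1.24 (0.908 to 1.7, two-sided Fisher's exact test, p = 0.188, adjusted p = 0.563 over 6 shares), so a difference was not shown. A protein-coding TSS lay within reach in 145 of the 149 peaks. Of these summits, 121 of 145 (83.4%) were upstream of the nearest coding TSS, against 760 of 937 (81.1%) of the other IDR peaks (Fisher's exact test, odds ratio 1.17, 0.736 to 1.87, p = 0.567, adjusted p = 0.91). Head-to-head promoters, with the summit within 500 bp of the TSSs of 2 protein-coding genes that are transcribed away from each other, made up 55 of 145 (37.9%), against 354 of 937 (37.8%), with an odds ratio of 1.01 (0.702 to 1.44, Fisher's exact test, p = 1, adjusted p = 1).

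Within promoters, however, the summits of the strongest peaks stood farther upstream. The median position was 110 bp upstream of the nearest protein-coding TSS (quartiles at 175 and 42 bp upstream), against 71 bp upstream for the other IDR peaks (quartiles at 144 and 20 bp upstream). Summits more than 100 bp upstream were 84 of 145 (57.9%, 49.8 to 65.7), against 356 of 937 (38%, 34.9 to 41.1). The odds ratio was 2.25 (1.58 to 3.21, two-sided Fisher's exact test, p = 7.43e-06), and this test was added after the positions had been seen. With the summits of replicate 1 alone the shares differed by 17.6 percentage points (Fisher's exact test, p = 9.07e-05), and with those of replicate 2 alone by 18.8 (Fisher's exact test, p = 2.25e-05). Both use the same peaks and the same cut, so they are not independent of the first test. Examples just past the 100 bp cut are Hpf1, 103 bp upstream, CG7601, 105 bp upstream, Shc and CenG1A, both 116 bp upstream, and CHMP2B, a gene of the ESCRT-III complex, 104 bp upstream. Except at Hpf1, these summits also lie within 500 bp of the TSS of another gene.

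**Figure D2:**
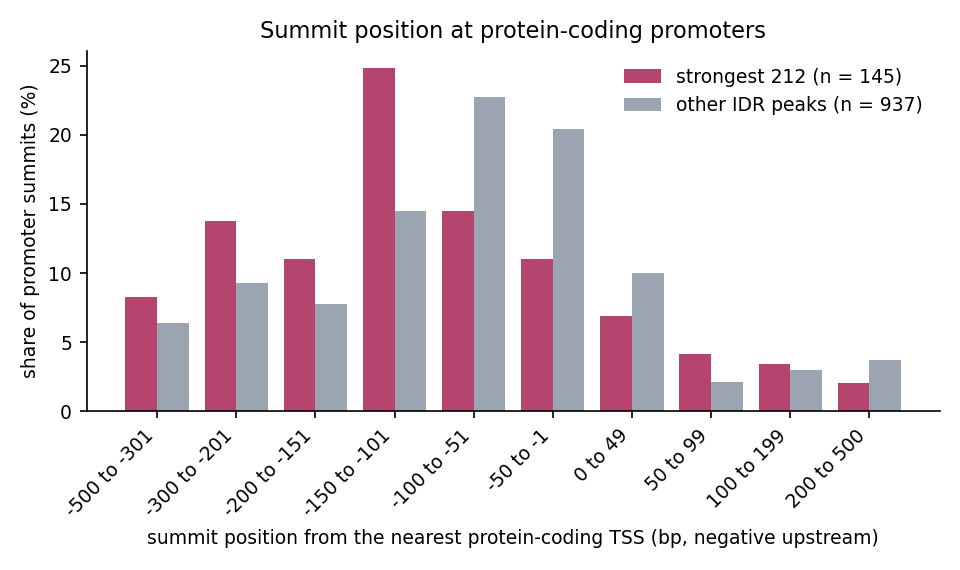
Share of summits at protein-coding promoters (vertical, %) by position relative to the nearest protein-coding TSS (horizontal, bp, negative upstream), for the 145 promoter summits of the strongest peaks and 937 of the other IDR peaks. The strongest peaks are most frequent in the bin ending 150 bp upstream, with 24.8% of their summits, against 14.5% of the others. From 51 to 100 bp upstream the shares were 14.5% for the strongest peaks and 22.7% for the others.

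Outside promoters there were 63 of the strongest peaks, 39 in introns and 20 between genes. Introns thus held 61.9% (49.6 to 72.9), against 373 of 511 (73%, 69 to 76.7) for the other IDR peaks (Fisher's exact test, p = 0.075, adjusted p = 0.225 over 6 classes). Intergenic summits made up 31.7% (21.6 to 44), against 20.7% of 511 (17.5 to 24.5), with an odds ratio of 1.78 (1.003 to 3.15, Fisher's exact test, p = 0.0532, adjusted p = 0.225). Neither difference passed adjustment. The 8 strongest of these 63 peaks were those near cbt, CG11050, Lk6, CG9663, CG32772 (381), HmgZ, CG14762 and lncRNA:CR46035, a non-coding gene inside osa. The peak farthest from a TSS was at chr2R:13035240-13035419, 11931 bp from that of CG13323, with signals of 110 in replicate 1 and 145 in replicate 2.

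Each arm held some of the strongest peaks, with 44 on 2L, 45 on 2R, 36 on 3L, 51 on 3R, 1 on chromosome 4 and 35 on X. The X held 16.5% of them (12.1 to 22.1), against 16.9% of the other IDR peaks (15.1 to 18.9), with an odds ratio of 0.971 (0.66 to 1.43, Fisher's exact test, p = 0.922, adjusted p = 1). The strongest peak of each arm was at Ugalt on X, CG14100 on 3L, mRpL41 on 2R, cbt on 2L, PNPase on 3R and lncRNA:CR43437 (129.8) on 4.

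The strongest peaks had another IDR peak close by more often. A further IDR summit lay within 5000 bp at 83 of the strongest peaks (39.2%, 32.8 to 45.9), against 439 of 1484 (29.6%, 27.3 to 32). The odds ratio was 1.53 (1.14 to 2.06, two-sided Fisher's exact test, p = 0.00538, adjusted p = 0.0323 over 6 shares). The call is lost within 2000 bp (a difference of 5.05 percentage points, Fisher's exact test, unadjusted p = 0.0699), within 20000 bp (unadjusted p = 0.541), for the top 6.25% of the list (unadjusted p = 0.0816) and for the top 25% (unadjusted p = 0.0518). With peaks ranked by replicate 2 alone the difference was 7.95 percentage points, and the adjusted p was 0.127 (Fisher's exact test, unadjusted p = 0.0211). In 16 of the strongest peaks a neighbour was itself one of the strongest, in 8 pairs. A pair of peaks 1010 bp apart lay at cbt, with signals of 560.2 and 169.8. At lncRNA:CR44619 the summits were 960 bp apart, with 493 and 279, and in NFAT, a transcription factor gene, 707 bp apart, with 185 and 145. In egh, a glycosyltransferase gene, they were 4304 bp apart, with 149.5 and 122. The other pairs joined peaks of different genes, namely Rbsn-5 and Acbp1, jp and brwl, RpL31 and CG1827, and Alg3 and CG46429.

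Genes were counted by lists, as a description. Of 13945 protein-coding genes, 203 (1.46%) had one of the strongest summits within 500 bp of a TSS, and 1493 (10.7%) had any IDR summit there. Cytoplasmic ribosomal protein genes were counted with one of the strongest summits in 16 of 92 cases (17.4%) and with any IDR summit in 57 of 92 (62%). The 16 comprised 13 of 54 genes of the large and 3 of 38 genes of the small ribosomal subunit. RpS27 was the strongest, with a signal of 235, and with 132 in replicate 1 and 100.2 in replicate 2. RpL32 had 196, with 93 in replicate 1 and 107 in replicate 2. RpL23A had 187, with 77.6 in replicate 1 and 112 in replicate 2, and RpL14 had 183, with 87.5 in replicate 1 and 95.3 in replicate 2. These ribosomal peaks lay at rank 41 and below, none among the 40 strongest. The peak at RpS27 also lies within 500 bp of Nup37, so its gene cannot be told apart. Other peaks of this list also have another gene within 500 bp, among them those at RpL32, RpL41, RpL7, RpL34b, RpL13A, RpL31 and RpLP0. For RpL14 the TSS nearest to the summit is that of Nelf-E, and for RpS20 that of CG17271.

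Mitochondrial ribosomal protein genes had 4 of 75 (5.33%), and these stood high, at mRpL41 (586, rank 3), mRpS23 (378, rank 12), mRpS10 (301, rank 25) and mRpL23 (208, rank 54). For mRpS23 the TSS nearest to the summit is that of CenG1A, and for mRpS10 that of Art3. Translation factors had 3 of 51, at eIF6 (231), eEF1gamma (139) and eIF1 (136), of which eIF1 shares its peak with RpL28. The Rab, ESCRT and Vps list had 2 of 64, at CHMP2B (364) and Vps33B (163), and the Wnt pathway 2 of 23, at gro (137), a corepressor, and sgg (127), the GSK3 kinase. Single genes were present for the Polycomb group (ph-p, 325), boundary factors (Chro, 319), KLF and Sp factors (cbt, 169.8 at its promoter), the EGF receptor pathway (spi, 139), chaperones (Hsp83, 131), Mediator and TFIID (MED30, 132), the nuclear pore (Nup37, 235), mitosis and cell cycle (Dp, 137, a partner of E2F) and oxidative phosphorylation (ND-MWFE, 125). The TSS nearest to the summit is that of Rev1 for MED30 and that of TppII for ND-MWFE. No gene was present for 14 of the 28 lists, among them the proteasome, the spliceosome, Hox genes, gap and pair-rule genes, chemoreceptors and cuticle proteins. These 14 lists hold from 10 genes (Hox genes and cofactors) to 179 (chemoreceptors). At the 1.46% counted over all coding genes, few or none would fall in lists of these sizes. An empty list is therefore no result about that list.

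The GC content differed in the centre of the peaks, while over the whole window of 100 bp on either side of the summit a difference was not shown. In the whole window the median was 37.3% in both sets, and a value under the median of all IDR peaks was found in 104 of the strongest peaks (49.1%), against 697 of 1484 (47%; Fisher's exact test, p = 0.607, adjusted p = 0.91). Within 50 bp on either side, which was an alternative setting, 133 of the strongest peaks (62.7%, 56.1 to 69) were under the median, against 693 of 1484 (46.7%, 44.2 to 49.2), with an odds ratio of 1.92 (1.43 to 2.58, Fisher's exact test, p = 1.34e-05). Median GC in this centre was 34.2% at the strongest peaks and 37.1% at the others. At promoters it was 34.7% at the strongest peaks against 38.6% at the others, and outside promoters 33.7% against 34.7%. From 51 to 100 bp on both sides the median was 39% at the strongest peaks and 38% at the others, without a test. At the strongest peaks the replicate summits lay closer together and promoter summits farther upstream, as given above, and the part of both in this profile was not tested.

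**Figure D3:**
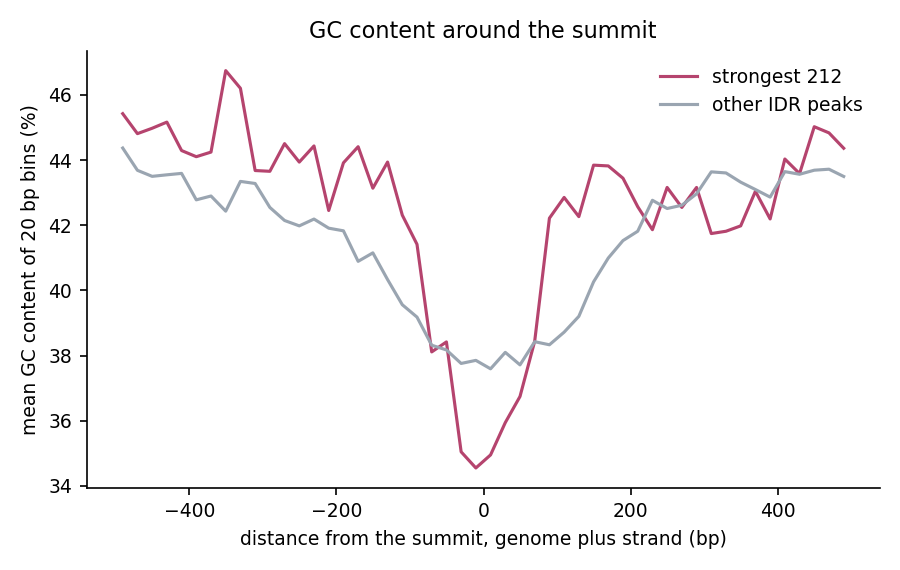
Mean GC content (vertical, %) in bins of 20 bp by distance from the summit (horizontal, bp, plus strand), for the strongest and the other 1484 IDR peaks. In the 20 bp just left of the summit the mean was 34.6% at the strongest peaks and 37.9% at the others, and 121 to 140 bp to the left it was 43.9% at the strongest peaks and 40.3% at the others.

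None of 23 known motifs, 0% of those tested, passed adjustment, and 1 had an unadjusted Fisher's exact p under 0.05. The KLF core CACACCC or CACGCCC was present at 4 of the strongest peaks (1.89%), against 37 of 1484 (2.49%), with an odds ratio of 0.752 (0.265 to 2.13, Fisher's exact test, p = 0.811, adjusted p = 1). In windows 1000 bp to the right of the same summits it was present in 8 (3.77%), and in windows of the same length centred 100 bp upstream of 19253 protein-coding TSSs in 2.72%. The form counted for BEAF-32, an insulator protein, was at least 2 CGATA words without overlap, at any spacing within the window. It gave the one p under 0.05, with 19 of the strongest peaks (8.96%), against 238 of 1484 (16%), an odds ratio of 0.515 (0.315 to 0.842, Fisher's exact test, p = 0.00566, adjusted p = 0.13). The promoter windows held it in 13.8%. It passed for the top 25% of the list (8.49% of those peaks against 17.4% of the rest, Fisher's exact test, adjusted p = 0.000114) and for as many peaks ranked by replicate 1 (6.6% against 16.4%, Fisher's exact test, adjusted p = 0.00198), but not for as many ranked by replicate 2 (10.4% against 15.8%, Fisher's exact test, adjusted p = 0.614).

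The 4 words passed with shares about 2 to 3 times as high at the strongest peaks. Word 1 was present in 26 of the strongest peaks' windows (12.3%, 8.51 to 17.4), against 60 of 1484 (4.04%, 3.15 to 5.17), with an odds ratio of 3.32 (2.04 to 5.39, two-sided Fisher's exact test, adjusted p = 0.0124). Word 2 was in 26 (12.3%), against 65 (4.38%), with an odds ratio of 3.05 (1.89 to 4.93, Fisher's exact test, adjusted p = 0.0234). Word 3 was in 25 (11.8%), against 63 (4.25%), with an odds ratio of 3.02 (1.85 to 4.91, Fisher's exact test, adjusted p = 0.0253). Word 4 was in 49 (23.1%, 17.9 to 29.2), against 181 (12.2%, 10.6 to 14), with an odds ratio of 2.16 (1.52 to 3.09, Fisher's exact test, adjusted p = 0.0305). Unadjusted, 103 of all words tested had a Fisher's exact p under 0.05. A cut at 0.05 passes at most about that many on average when no word differs, and exact tests of small counts pass fewer. How many would pass here was not determined, so this count lends no weight to the 4 words. With windows of 50 bp or of 200 bp on either side instead, 0 words passed. Words 1 and 2 also passed for as many peaks ranked by either replicate alone. Word 3 did not pass by replicate 1 (Fisher's exact test, adjusted p = 0.333), and word 4 passed in neither. The ranking by replicate 1 holds 85.4% of the strongest peaks, on which the words were chosen, and that by replicate 2 holds 84.9%. Passing in them is therefore not an independent result. For the top 6.25% of the list, words 3 and 4 did not pass (Fisher's exact test, adjusted p = 0.227 and 0.425). For the top 25%, words 2 and 4 did not pass (Fisher's exact test, adjusted p = 0.183 and 0.216). Word 1 passed in each of these rankings, all of which share peaks with the main one. Within 50 bp of the summit the direction of word 4 turned, with 5.66% of the strongest peaks against 6.4% of the others.

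For scale, the same promoter windows held word 1 in 3.71%, word 2 in 3.82%, word 3 in 4.17% and word 4 in 9.09%. Among 19765 weaker pooled candidates the shares were 5.97%, 4.65%, 4.77% and 11.4%. In windows 1000 bp to the right of the strongest summits, 7.55% held word 1, 3.3% word 2, 2.83% word 3 and 12.3% word 4.

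**Figure D4:**
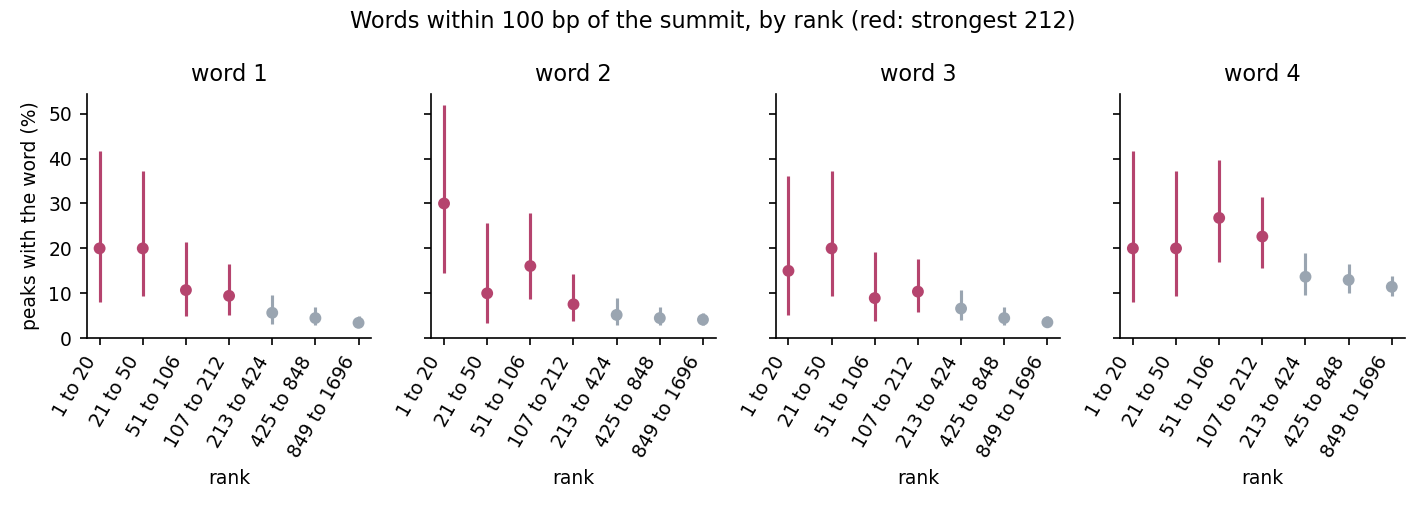
Share of peaks with each word within 100 bp of the summit (vertical, %, with Wilson 95% intervals) by rank (horizontal), red for the strongest peaks and grey for the others. Word 2 was present in 30% of ranks 1 to 20 (14.5 to 51.9) and 7.55% of the lower 50% of the strongest peaks, while word 4 was present in 20% and 22.6% of them and word 3 in 15% and 10.4%.

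Any of the 4 words was present at 83 of the strongest peaks (39.2%), against 315 of 1484 (21.2%), and at least 2 different words at 29 (13.7%), against 47 (3.17%). These are descriptions, since the words were chosen on the same windows, and a single stretch in which words overlap or join counts as 2 words. Word carriers were found inside and outside promoters, at 56 of 149 (37.6%) and 27 of 63 (42.9%) of the strongest peaks, against 194 of 973 (19.9%) and 121 of 511 (23.7%) of the others. By rank, the share with any word was 50% at ranks 1 to 20, 43.3% at ranks 21 to 50, 44.6% over the next 56 ranks, 33% over the rest of the strongest peaks and 25% over as many ranks just below them. At least 3 words were present at 12 peaks, which include CG9663, CHMP2B, Shc, CG16753, Msp300, muskelin, egh and Dp. Repeat-masked bases of the reference made up on average 13.5% of the 83 windows with a word and 18.4% of the 129 without, and 0 of the 83 were masked over most of their length.

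The words were chosen for their frequency within 100 bp of these summits, so an excess inside that distance is not a result, and their positions are described without a test. Word 1 had 4.72 sites per 1000 of the strongest peaks within 25 bp of the summit and 56.6 from 25 to 50 bp, against 12.8 and 11.5 at the other IDR peaks. Word 2 had 0 and 51.9 in these bins, against 15.5 and 8.09. These low values rest on few sites, with 1 site of word 1 and 0 of word 2 within 25 bp. Word 3 had 23.6 sites per 1000 of the strongest peaks within 25 bp, as many as from 75 to 100 bp, and 56.6 from 25 to 50 bp, against 10.8 within 25 bp at the others. Word 4 had 28.3 within 25 bp and 118 from 75 to 100 bp, against 25.6 and 36.4 at the others, and in the Lk6 window printed above it covers the summit itself. The GC-poor centre described above covers the innermost bins, and its part in these positions was not tested.

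**Figure D5:**
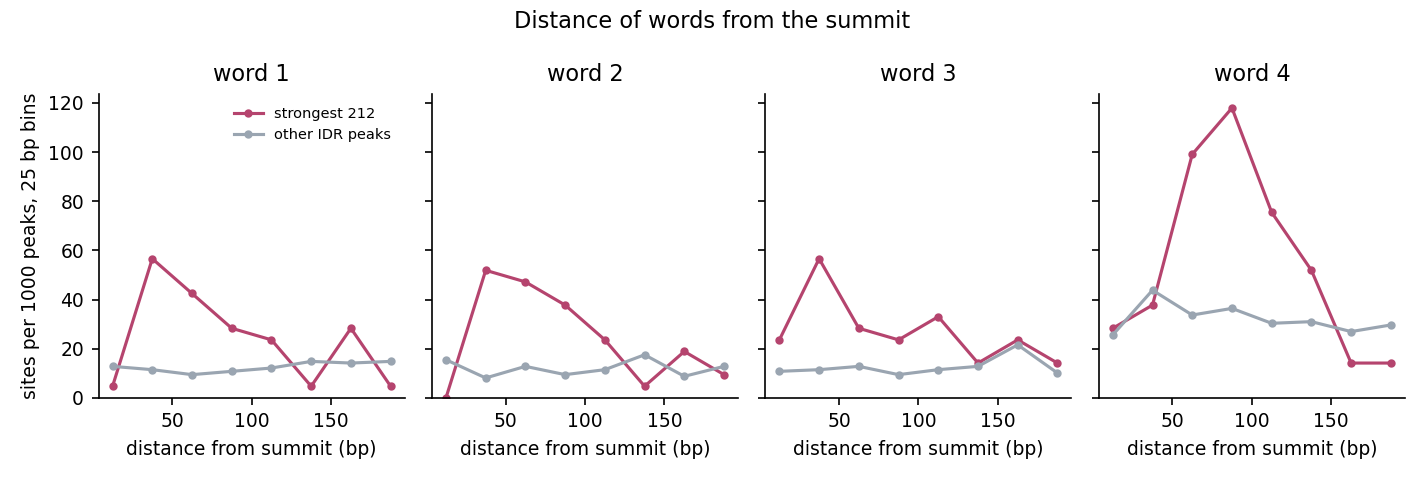
Sites of each word per 1000 peaks in bins of 25 bp (vertical) by distance from the summit (horizontal, bp), for the strongest and the other IDR peaks. At the strongest peaks words 1, 2 and 3 are most frequent from 25 to 50 bp and word 4 from 75 to 100 bp, and words 1 and 2 have 1 and 0 sites within 25 bp.

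Word 2 followed by word 1 on the same strand, with at most 40 bp between them, was the arrangement printed above, and it was noticed in these data. It occurs at 317 sites on the 6 arms. Of these, 10 lay within 150 bp of the summit of 10 of the strongest peaks (4.72%), 6 within 150 bp of 6 of the other IDR peaks (0.404%), 20 at weaker candidates and 281 elsewhere. The opposite order, word 1 then word 2, occurs at 312 sites, of which 0 were at the strongest peaks and 2 at other IDR peaks. With word 2 turned round there are 187 sites, of which 1 was at the strongest peaks and 1 at the others, and with word 1 turned round there are 155, of which 0 were at the strongest peaks and 2 at the others. The 10 peaks were those at CG14100, CG9663, CHMP2B, CG16753, mRpL23, CG3009, muskelin, CG31612, Adck1 and Dp, at ranks 2 to 138. The gap between the words was 14 bp at CG14100, CHMP2B, muskelin and Adck1, 15 bp at CG16753, 11 bp at CG3009, 9 bp at CG31612 and Dp and 3 bp at CG9663 and mRpL23. CG31612 is also the peak with the least even replicate signals. The joined form CAGTGGCGTA was in the windows of 5 of the strongest peaks (2.36%), against 1 of 1484 (0.0674%), and occurs 204 times on the arms. The other joined form, AGGGGGT, was in the windows of 12 of the strongest peaks (5.66%), against 27 of the others (1.82%), and occurs 8494 times on the arms. The words were chosen for their excess at these same peaks. An excess of the arrangement or of a joined form is therefore a description and no further result.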

How the data were processed

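Peak lists in dm6 were used, 1 candidate list per replicate (30000 peaks each), 1 of both replicates pooled (21725) and the IDR list (1696), of which ranks 1 to 212 are the strongest peaks described above and 1484 the other IDR peaks. The README texts state that candidates came from alignments with a control. The authors deposited a signal value per peak, a score without a stated scale, which was used to rank peaks and describe them. For the aligner, the peak caller and the IDR cut, names and settings were not given in the sources used here. Read counts were not used, so the depth is unknown. The 212 peaks, the gene lists and the tests were chosen with earlier results of these data known.

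Genes came from Ensembl 115 (BDGP 6.54), whose coordinates are those of dm6, with 18164 genes. Sequence came from RefSeq Release 6, and 0 peaks reached beyond an arm's end. Each summit took the nearest TSS, protein-coding first within 500 bp, and locations outside promoters took the first that applied of untranslated or coding exon parts (5′ end first), exons of non-coding genes, introns and intergenic sequence. A replicate match was the nearest summit within 250 bp. Of 287 symbols in the 28 gene lists, 22 were not matched, and name patterns can take in related genes.

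Shares were compared by two-sided Fisher's exact tests (scipy 1.17.1, numpy 2.4.6, pandas 2.3.3), with Wilson 95% intervals for shares and Woolf 95% intervals for odds ratios, and Benjamini-Hochberg adjustment over 6 shares, 6 classes, 23 motifs or 2080 words, with a threshold of 0.05. A peak is no biological replicate, and the p-values say nothing of variation between embryo collections. Neighbouring peaks are not independent, and intervals cover counting error only. Named genes are those of the 10 strongest peaks, ranks 21 to 40, 5 peaks on each side of the border, the 8 strongest outside promoters, the strongest of each arm, up to 4 per gene list, the 5 peaks at either end of the replicate ratio and peaks beyond rank 1696 in a replicate. Other named genes serve as examples and were chosen after their values were seen. Windows were 201 bp around the summit. Motifs were searched on both strands as CACACCC or CACGCCC (KLF core), GGGCGG (Sp), TATCGATA (Dref), 2 CGATA without overlap (BEAF-32; CGATA lies within the Dref form), GGTCACACT (M1BP), CAGCNCTA or CATCNCTA (Ohler7), AGATGGCGC or AGAGGGCGC or AGGTGGCGC or AGGGGGCGC (CTCF core), GAGAGAG (for the GAGA factor), GCCAT (Pho), CACGTG and CAGCTG and CAGGTG (3 E-boxes), CAGGTAG (Zelda), TATAAA (the TBP site), TCAGTT (initiator), TAATTA (Hox), AGATAA (for GATA factors), TGACGTCA (CRE), TGACTCA (AP-1), TTCNNNGAA (STAT), CACACACA (CA repeat), AAAAAAAA (A run) and TGCGCA (NRF). Alternatives were the strongest 106 (6.25%) and 424 (25%) peaks, the weaker 50% (ranks 849 to 1696) as comparison, ranks from 1 replicate, distances and windows of 101 or 401 bp.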

Additional observations from a re-analysis of the deposited data

How the results depend on the processing

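Values are differences in percentage points between the strongest and the other IDR peaks. Among 56 tested shares under alternative settings, 39 kept their direction and their side of an unadjusted p of 0.05, which is the rule for shares here. The promoter share passed for the top 25% (5.82; adjusted p = 0.155 over 6 shares by Fisher's exact tests). The intron share passed for the top 25% (-11), against the weaker 50% (-12.6), with a promoter of 250 bp (-11.9) and in 1 of the settings that leave out a replicate (-15.7 to -6.91). Nearby peaks lost the call for the top 6.25% (8.43), the top 25% (5.19), within 2000 bp (5.05) and within 20000 bp (2.36). The low GC share passed in windows of 50 bp on either side (16). Small differences changed sign for head-to-head promoters with the top 25% (-2), a promoter of 1000 bp (-1.16) and without replicate 1 (-1.87, against 1.26 without replicate 2), and for the X with the top 6.25% (1.13), the top 25% (0.472) and without replicate 1 or 2 (0.135 to 0.674). The number of motifs was 2 for the top 25% and 0 to 1 without a replicate, and the number of words was 0 in windows of 50 bp and 0 in windows of 200 bp on either side, against 4 with 100 bp, and 3 without either replicate. It was 4 for the top 6.25% and 4 for the top 25%, of which only 2 in each were among the 4 words named. The cause was not tested. The longer window, the summits by replicate and the cuts at 75 and 150 bp were chosen after seeing the data, and the share over 100 bp upstream passed in each of its 9 settings (9.62 to 26.4). No paired analysis was possible because there is 1 group. Depth per library is unknown, so a peak's counting error cannot be given.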
